A study of Mus musculus with 3 samples.

Results

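The nuclear genes for complex III, complex IV and ATP synthase, the closing steps of mitochondrial respiration, were followed in RNA recovered with 2 RNA-binding proteins from mouse muscle cells. A gene was included where its symbol in the deposited table begins with Uqcr, Atp5 or Cox4 to Cox8, or is Cyc1. This gave 42 of the 15403 genes in the table: 9 for complex III, 15 for complex IV, 15 for ATP synthase and 3 that share the naming pattern without encoding a subunit. Those 3 are Cox7a2l, which encodes a factor that joins complexes III and IV, and Atp5s and Atp5sl. Subunits made inside the mitochondrion had 0 rows and are not analysed here. Of the 42 genes, 40 had a mean normalized count of 10 or more over the 3 libraries. The exceptions were Cox4i2 and Cox6b2, isoforms best known from lung and testis, which had 12 reads and 1 read in the IgG library and 0 reads in both others.

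Complex III hands electrons from ubiquinol to cytochrome c, and complex IV passes them on to oxygen. Both pump protons across the inner mitochondrial membrane, and ATP synthase uses the returning protons to turn its c ring and make ATP in its F1 head. Most subunits of these machines are encoded in the nucleus by short, abundant mRNAs. In striated muscle, some complex IV subunits exist as a heart and muscle isoform beside an isoform found in most tissues. HuR, encoded by Elavl1, is known for binding AU-rich and U-rich stretches in 3′ untranslated regions (UTRs), and YB-1, encoded by Ybx1, is an abundant mRNA-packaging and cold-shock protein.

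Per the labels, the cells were C2C12, a mouse myoblast line that fuses into multinucleated muscle cells when serum is lowered. All 3 extracts came from day 2 in medium with 2% horse serum. Each RNA immunoprecipitation (RIP-seq) used 500 µg of extract, and 15 µl of antibody against YB-1, of antibody against HuR or of control IgG. The 3 columns carry the tag siCtl, which the labels do not explain. There was 1 library per antibody, so no difference below has a replicate check and none has a test. Depth over all genes was 39038366 reads (YB-1), 24722166 (HuR) and 10617029 (IgG). One read equals 0.531, 0.862 and 2.29 normalized counts in the same order, so a given level rests on the fewest reads in IgG. Ranges in brackets are exact 95% Clopper-Pearson intervals, which cover counting error alone.

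The IgG library differed from both others in make-up. The 6 myogenic markers were present in all 3 libraries, with summed normalized counts of 599132 (YB-1), 626371 (HuR) and 1038116 (IgG). Acta1 and Ckm, genes of the contractile and energy machinery, carried the IgG sum, and Myog, Myod1 and Myh3 went the other way. The regulator Myog stood at 45679, 229849 and 13754, and the median log2 ratio of the 6 to IgG was 1.07 for YB-1 and 0.73 for HuR. The 6 markers of slow or adult muscle summed to 122665, 81441 and 927781. The 4 adipocyte markers in the table, of 5 listed, summed to 1.06, 10.3 and 5849, with Adipoq, Cidea and Plin1 at 0 in YB-1 and HuR. The 4 endothelial markers summed to 14.3, 1.72 and 9151, with Kdr, Pecam1 and Tek at 0 in HuR. Adipocyte and endothelial markers were thus at or near 0 in both immunoprecipitates and present in IgG, for example Fabp4 at 5386 and Pecam1 at 2818. Their presence goes against the label of that library, which names C2C12 cells alone. Each ratio to IgG below rests on this library, and HuR over YB-1 is the comparison without it. The 3 cardiac markers in the table, of 4 listed, summed to 2178, 2361 and 911, with Nppa at 0 in YB-1 and HuR. Ptprc, the 1 blood marker of 3 in the table, stood at 0 in YB-1 and HuR and 27.5 in IgG. The part these transcripts play in any ratio to IgG was not tested. With 1 library per antibody, recovery by the antibody, the cells in the extract and the RNA per cell cannot be told apart.

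The respiratory transcripts took a larger share of the IgG library than of either immunoprecipitate. The 42 genes held 1.74% of the IgG library, 1.14% of the YB-1 library and 0.693% of the HuR library. ATP synthase made up most of this, with 1.02%, 0.670% and 0.410% in the same order. Complex IV held 0.393%, 0.270% and 0.156%, and complex III held 0.308%, 0.166% and 0.107%. HuR was lowest for each of the 3 complexes.

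**Figure D1:**
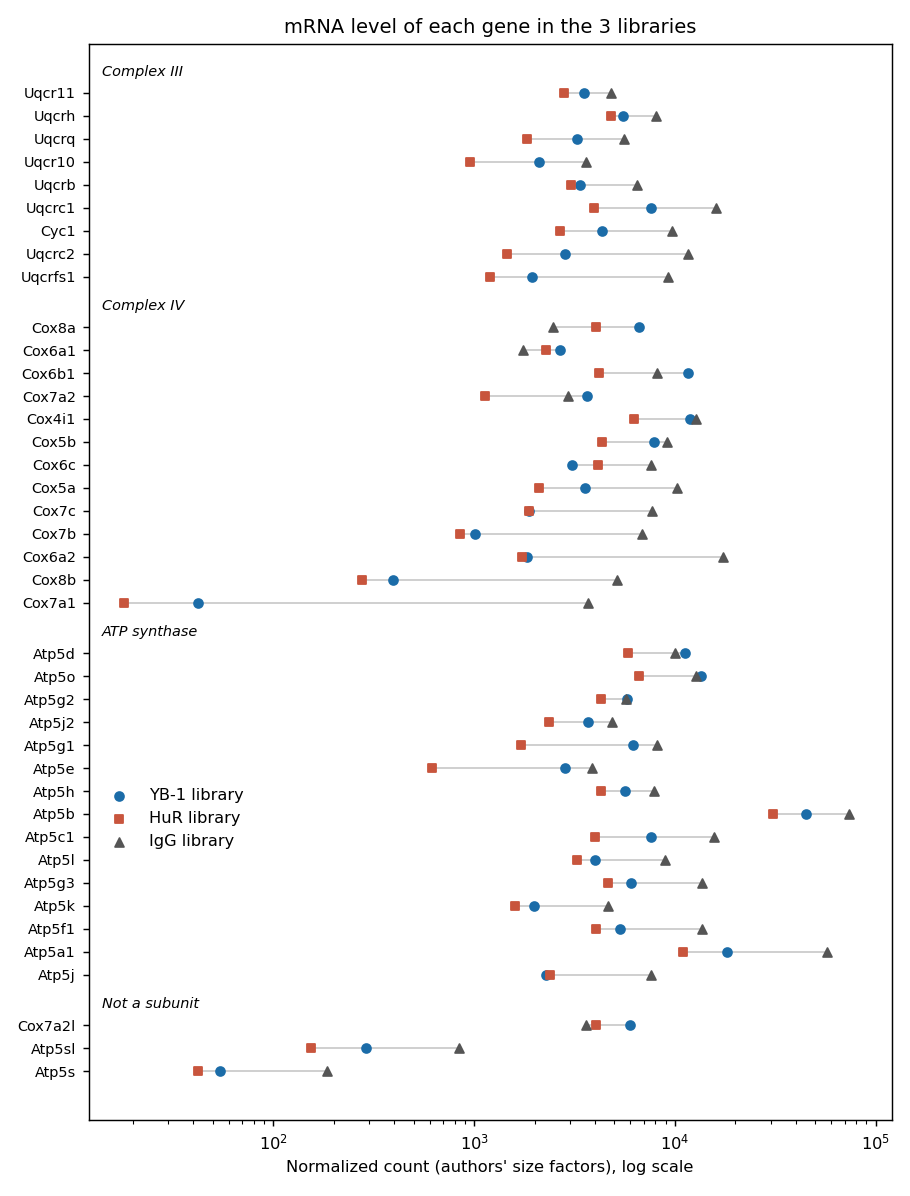
Normalized count on a log axis for the 40 genes with a mean of 10 or more, 1 row per gene and 1 symbol per library, grouped by complex. In most rows HuR (square) lies to the left, YB-1 (circle) between and IgG (triangle) to the right, and Cox7a1 and Cox8b show the widest gaps.

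Against IgG, the typical gene of the group was lower in both immunoprecipitates. The median log2 ratio of YB-1 over IgG came to -0.998 over the 40 genes, against -0.17 over all genes. In YB-1, 20 of the 40 were at least 2-fold below IgG, where 32.8% of all genes were. One, Cox8a, was at least 2-fold above it, where 17% of all genes were. For HuR over IgG the median was -1.58, against -0.16 over all genes. In HuR, 29 of 40 were at least 2-fold below IgG, where 31.1% of all genes were, and 0 were at least 2-fold above it, where 18.9% of all genes were. On the authors' scaling, used throughout unless stated, 8 of 40 genes lay above IgG in YB-1 and 3 in HuR. The medians of all genes were themselves below 0, and 31 of the 40 lay under that median in YB-1 and 37 in HuR. Recentred on cytosolic ribosomal protein genes, 1 lay above IgG in each, and the number at least 2-fold below IgG in YB-1 went from 20 to 34. Scaled to total reads, that number was 15 and 10 of 40 lay above IgG in YB-1, and with the authors' moderated fold it was 14. That recentring moved the median of all genes to -1.33 for YB-1 over IgG and -0.65 for HuR over IgG. Relative to the median of all genes, the group's median stood at -0.83 for YB-1 over IgG and -1.42 for HuR over IgG. These positions are the same under each scaling by construction, because a scaling shifts every gene alike.

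Read directly against each other, the HuR library held less of these mRNAs than the YB-1 library did. The median log2 ratio of HuR over YB-1 was -0.67, against -0.06 over all genes, and 37 of 40 genes lay below 0. The median of all genes was itself below 0, and 37 of the 40 lay under it, where 5934 of 11868 genes did. Of the 40, 7 were at least 2-fold lower in HuR, where 10.6% of all genes were, and 0 were at least 2-fold higher, where 19.3% of all genes were. The sign depends on the scaling: recentred on ribosomal protein genes, the group's median became 0.067 and that of all genes 0.68, with 16 of 40 genes below 0. Relative to the median of all genes the group stood at -0.61 under each scaling, by construction, because a scaling shifts every gene alike. The counting interval covered 0 for 4 genes, Cox6a2, Cox7c, Atp5j and Atp5s.

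**Figure D2:**
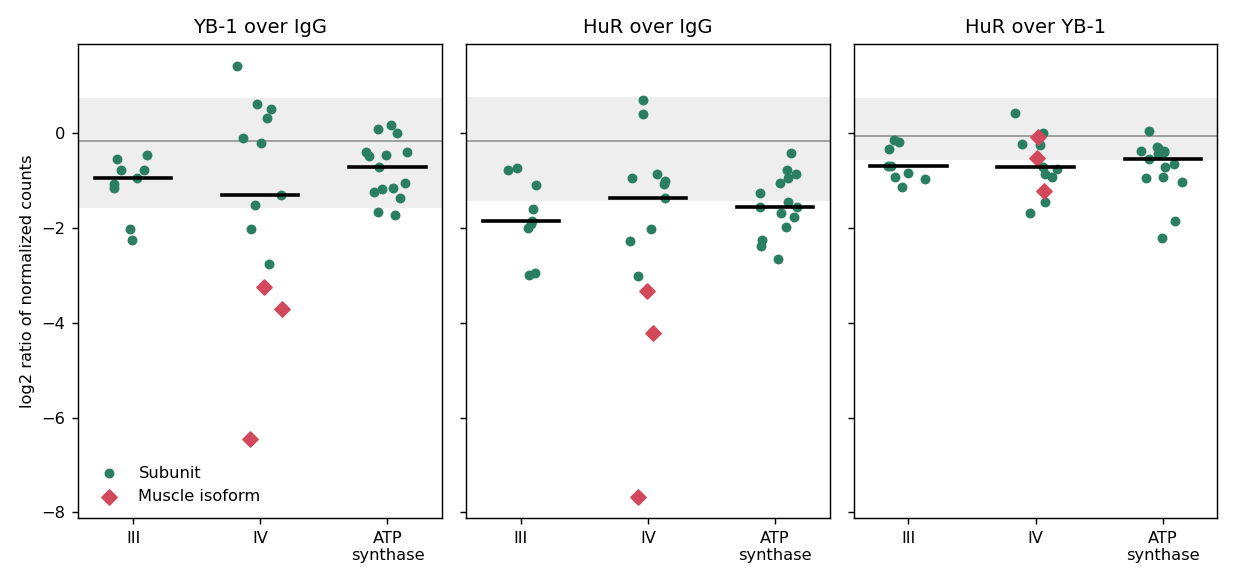
Log2 ratio on the vertical axis for the 37 subunit genes with a ratio, by complex, in 3 panels. The panels show YB-1 over IgG, HuR over IgG and HuR over YB-1. Diamonds mark the 3 muscle isoforms of complex IV, which lie lowest in both panels against IgG, where Cox8a lies highest. A grey line and band give the median and quartiles of all genes, and black bars the median of each complex.

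In complex III all 9 genes were lower than IgG in both immunoprecipitates, and all 9 lay below the median of all genes in both ratios. The complex had a median log2 ratio of -0.94 for YB-1 and -1.86 for HuR. Of the 9 genes, 4 and 7 were at least 2-fold lower, where 32.8% and 31.1% of all genes were. Uqcrc1, a core protein that faces the matrix, stood at 7573 (YB-1), 3961 (HuR) and 15934 (IgG) normalized counts. Uqcrc2, the other core protein, stood at 2844, 1458 and 11604. IgG was highest for both, and Uqcrc2 had the larger gap, with log2 ratios of -2.03 and -2.99 for YB-1 and HuR over IgG against -1.07 and -2.01 for Uqcrc1.

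The electron-carrying subunits of complex III followed the same order. Uqcrfs1, the Rieske iron-sulfur protein, had 1934 (YB-1), 1203 (HuR) and 9254 (IgG) normalized counts, so IgG was 4.79-fold above YB-1 and 7.70-fold above HuR. Cyc1, the cytochrome c1 subunit, had 4355, 2685 and 9720. The 5 small subunits had medians of -0.78 for YB-1 and -1.09 for HuR over IgG, nearer to IgG than Cyc1 except Uqcr10 in HuR, at -1.92 against -1.86. Among them Uqcrh, the hinge protein at the cytochrome c site, had 5496, 4810 and 8020. Uqcrb, which binds near the ubiquinone site, had 3365, 3037 and 6450. For these last genes HuR was close to YB-1, with log2 ratios of HuR over YB-1 of -0.19 and -0.15. Uqcr11 stood at 3523, 2798 and 4826 and Uqcrq at 3265, 1835 and 5588. Uqcr10, with 2095, 953 and 3598, was the 1 gene of 9 whose HuR level was under YB-1 by 2-fold or more. Of all genes 10.6% were, so the count of 1 in 9 is near that share.

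Complex IV was the most uneven of the 3 complexes. Its 13 genes with a ratio ran from -6.46 to 1.43 on the log2 scale for YB-1 over IgG, against -2.26 to -0.45 for complex III and -1.73 to 0.17 for ATP synthase. The median was -1.30 for YB-1 and -1.37 for HuR. Of the 13 genes, 7 and 9 were at least 2-fold lower, where 32.8% and 31.1% of all genes were. The 10 genes that are the sole or the widely expressed form of their subunit had medians of -0.15 and -1.04. The 3 muscle isoforms, Cox6a2, Cox7a1 and Cox8b, had medians of -3.70 and -4.22.

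All 3 muscle isoforms were far higher in the IgG library than in either immunoprecipitate. Cox7a1 had 42.0 (YB-1), 18.1 (HuR) and 3694 (IgG) normalized counts, from 79, 21 and 1610 reads. IgG exceeded YB-1 by 88.0-fold (70.2 to 112) and HuR by 204-fold (133 to 331). Among all 13022 genes with a ratio of YB-1 over IgG, 490 were at or below Cox7a1, 1503 at or below Cox8b and 1707 at or below Cox6a2. Cox8b had 395, 276 and 5135 normalized counts, so IgG was 13.0-fold above YB-1 (11.97 to 14.2) and 18.6-fold above HuR. Cox6a2 had 1834, 1740 and 17449, so IgG was 9.51-fold above YB-1 (9.14 to 9.91) and 10.03-fold above HuR. The same libraries differed in the adult muscle markers, with Myh2 at 293 (YB-1), 353 (HuR) and 301284 (IgG), and Tcap at 593, 754 and 49186. Tnnc1 did not follow, at 100940, 58122 and 73652. The part of adult muscle RNA in the isoform levels was not tested.

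The widely expressed partners showed no skew of this size. Cox8a had 6651 (YB-1), 4033 (HuR) and 2476 (IgG) normalized counts, which put YB-1 2.69-fold above IgG (2.52 to 2.86) and HuR 1.63-fold above it. Cox6a1 had 2679, 2291 and 1742. Cox7a2 had 3632, 1129 and 2921, so that YB-1 was above IgG and HuR below it. Recentred on ribosomal protein genes, the log2 ratio of YB-1 over IgG stayed above 0 for Cox8a, at 0.27, and turned to -0.53 for Cox6a1 and -0.84 for Cox7a2. For HuR over IgG it was 0.21 for Cox8a and turned to -0.09 for Cox6a1.

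Shares within each pair do not depend on the scaling between libraries. Of the reads of Cox6a1 and Cox6a2 together, the YB-1 library had 40.6% from Cox6a2 (39.6 to 41.7), the HuR library 43.2% (41.7 to 44.6) and the IgG library 90.9% (90.3 to 91.5). Of the Cox7a pair, Cox7a1 held 1.14% (0.906 to 1.42), 1.58% (0.979 to 2.40) and 55.8% (54.0 to 57.7). Of the Cox8 pair, Cox8b held 5.60% (5.22 to 6.01), 6.40% (5.74 to 7.12) and 67.5% (65.8 to 69.1). YB-1 and HuR lay close together in each pair and IgG far above both. The shares are of reads: per length of the longest annotated transcript, the Cox8b share was 8.31%, 9.46% and 76.0%. The Cox8 pair summed to 7046, 4309 and 7611 normalized counts, so YB-1 and IgG were near each other in the sum. The Cox7a pair summed to 3674, 1147 and 6616, and the Cox6a pair to 4514, 4031 and 19190.

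**Figure D3:**
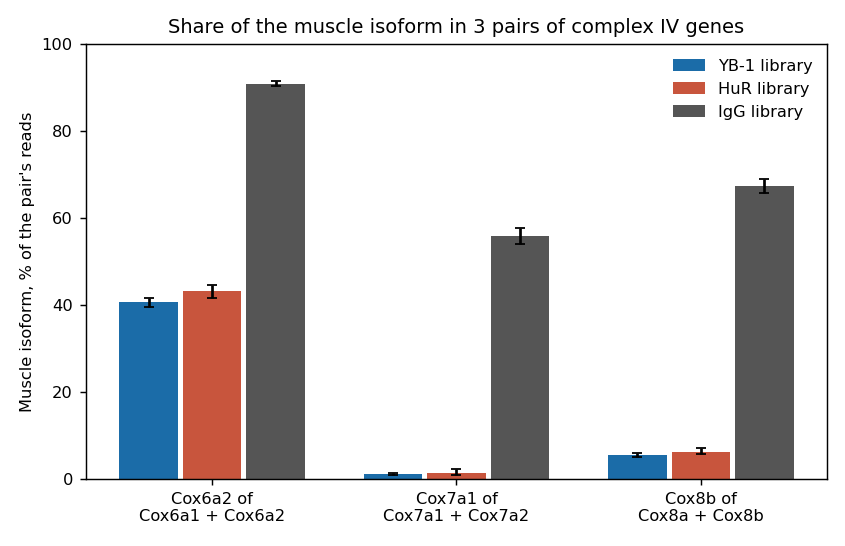
Share of each isoform pair's reads that came from the muscle isoform, in percent, by library, with exact 95% intervals. For Cox6a, Cox7a and Cox8 the YB-1 and HuR values lie close together and the IgG value is higher, at 90.9%, 55.8% and 67.5%.

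These isoform genes lie at separate places in the mouse genome. On GRCm38, Cox6a2 lies at chr7:128205435-128206387 (minus strand), Cox7a1 at chr7:30184144-30186078 (plus) and Cox8b at chr7:140898945-140900446 (minus). Cox6a1 lies at chr5:115345642-115348981 (minus), Cox7a2 at chr9:79755361-79759878 (minus) and Cox8a at chr19:7215153-7217616 (minus). Stretches of 50 bases were taken from each gene's longest annotated coding transcript and sought in the annotated transcripts of other genes. None from Cox6a2, Cox7a1, Cox7a2, Cox8a or Cox8b occurred in another gene, and 12.3% of those from Cox6a1 did. Other transcripts of each gene, and sequence outside annotated transcripts, were not searched. Exons of 12 of the 41 annotated genes, such as Cox6a2 with Itgad and Cox4i1 with Emc8, overlap a gene on the opposite strand, and without a stated strand setting reads of such neighbours cannot be told apart.

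Promoters are shown for the muscle isoforms Cox7a1 and Cox8b, lowest against IgG, and for Cox8a, highest against it. The windows run from 250 bases before to 50 after the start site, 5′ to 3′ on the gene's strand, from RefSeq on GRCm38.p6. They are chr7:140900397-140900696 (minus) for Cox8b, chr7:30183921-30184220 (plus) for Cox7a1 and chr19:7217567-7217866 (minus) for Cox8a. Capitals mark the letters TATAAA and CAGCTG (an E-box) in Cox8b and CCGGAAG, the core of ETS-family sites, on the reverse strand in Cox8a. Both strands were searched.
Cox8b: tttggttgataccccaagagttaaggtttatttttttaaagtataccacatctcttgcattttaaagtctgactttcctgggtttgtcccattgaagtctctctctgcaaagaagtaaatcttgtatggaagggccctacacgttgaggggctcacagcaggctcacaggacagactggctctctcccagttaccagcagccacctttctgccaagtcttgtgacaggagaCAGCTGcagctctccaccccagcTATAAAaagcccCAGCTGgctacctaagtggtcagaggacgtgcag
Cox7a1: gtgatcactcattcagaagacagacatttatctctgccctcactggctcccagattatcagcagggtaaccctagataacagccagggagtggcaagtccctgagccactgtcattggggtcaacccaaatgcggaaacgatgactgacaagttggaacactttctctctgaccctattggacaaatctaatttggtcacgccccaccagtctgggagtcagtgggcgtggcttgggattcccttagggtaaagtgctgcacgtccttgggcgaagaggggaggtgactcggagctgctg
Cox8a: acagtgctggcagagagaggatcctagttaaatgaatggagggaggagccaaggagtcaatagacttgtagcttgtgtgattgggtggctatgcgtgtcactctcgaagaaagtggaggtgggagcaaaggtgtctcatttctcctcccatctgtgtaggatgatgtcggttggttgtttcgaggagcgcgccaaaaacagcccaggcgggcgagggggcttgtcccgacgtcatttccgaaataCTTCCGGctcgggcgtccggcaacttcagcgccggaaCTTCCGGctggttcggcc
The Cox8b window holds both an E-box and a TATAAA, the Cox7a1 window holds none of the motifs searched, and the Cox8a window holds CCGGAAG and none of the others. Over 33 windows of 30 genes of the group, CCGGAAG occurred in 30.3%, against 8.86% of 32851 windows in all. GCGCATGC, the core of NRF1 sites, occurred in 18.2% against 2.71%, and AAGGTCA, the half-site of estrogen-related receptors, in 12.1% against 4.72%. CAGCTG occurred in 6.06% against 16.3%, in Atp5b and Cox8b. TATAAA occurred in Atp5l and Cox8b, against 13.6% of all windows, and the MEF2 motif in 0 windows, against 0.557% of all. A match is a run of letters and says nothing of binding.

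The remaining complex IV genes split between those near IgG and those well below it in YB-1. Cox4i1, the largest nuclear-encoded subunit, had 11824 (YB-1), 6271 (HuR) and 12667 (IgG) normalized counts. Cox6b1, which faces the intermembrane space, had 11587, 4207 and 8132. Cox5b, which binds zinc, had 7874, 4352 and 9103. In YB-1 these were near IgG or above it, and they were about as low in HuR as each other, with log2 ratios of HuR over IgG of -1.01, -0.95 and -1.06. Cox5a, which in human cells enters assembly early with Cox4i1, had 3557, 2107 and 10198. Cox7b, whose family member Cox7b2 is not analysed here, had 1011, 854 and 6879. Cox7c had 1873, 1879 and 7650, so that YB-1 and HuR were level and IgG above both. The authors' size factors put Cox6b1 above IgG in YB-1 at a log2 ratio of 0.51, which turned to -0.64 on recentring. Of the 50-base stretches, 25.9% of those of Cox5b and 27.9% of those of Cox7c occur in another gene, so their counts are less certain.

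Cox6c was the one gene of the 40 whose interval of HuR over YB-1 lay wholly above 0 on the authors' scaling. It had 3080 (YB-1), 4141 (HuR) and 7563 (IgG) normalized counts, and HuR was 1.34-fold above YB-1. Cox7a2l, the factor that joins complexes III and IV, had 5961, 4062 and 3598. It is one of 3 genes above IgG in both immunoprecipitates on the authors' scaling, with Cox8a and Cox6a1, and recentring turned its log2 ratios to -0.43 for YB-1 and -0.31 for HuR.

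ATP synthase genes lay mostly below IgG too, and the subunits of the F1 head differed among themselves. Of the 15 genes, 7 in YB-1 and 11 in HuR were at least 2-fold below IgG, where 32.8% and 31.1% of all genes were. The medians were -0.72 and -1.55. Atp5b, the catalytic beta subunit, had 44790 (YB-1), 30859 (HuR) and 73556 (IgG) normalized counts, and on its own held 0.302% of the IgG reads. Atp5a1, the alpha subunit, had 18087, 10946 and 57248, which is a log2 ratio of -1.66 for YB-1 over IgG against -0.72 for Atp5b. The partners of the same hexamer differed from each other in both ratios, since HuR over IgG was -2.39 for Atp5a1 and -1.25 for Atp5b. Atp5c1, the gamma subunit that turns inside the hexamer, had 7560, 4004 and 15735. Atp5d, the delta subunit of the central stalk, had 11202, 5828 and 9984.

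Atp5e, the epsilon subunit of the same stalk, was the extreme of the direct comparison. It had 2826 (YB-1), 614 (HuR) and 3867 (IgG) normalized counts, so YB-1 was 4.60-fold above HuR (4.26 to 4.98). Its log2 ratio of HuR over YB-1 was -2.20, and -1.47 after recentring. Atp5g1 followed with -1.85 and -1.12, and Cox7a2 with -1.69 and -0.95. These 3 lay lowest of the 40 genes in HuR over YB-1, below Cox6b1 at -1.46.

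**Figure D4:**
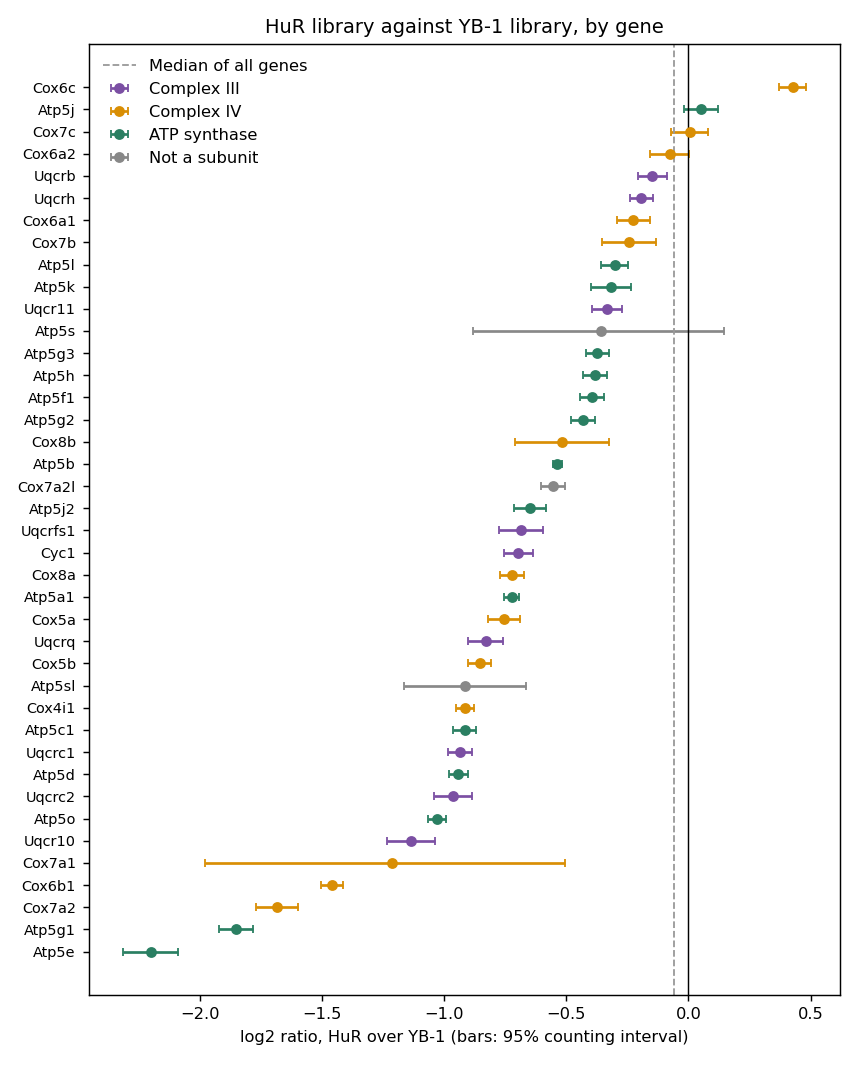
Log2 ratio of HuR over YB-1 for each of the 40 genes, in order, coloured by complex, with 95% counting intervals. Cox6c lies above 0 at 0.43, and Atp5e lies lowest at -2.20. Intervals reach 0 for Cox7c, Atp5j and Cox6a2, near the top, and for Atp5s, farther down.

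The 3 genes for the c subunit make the same mature protein with different import sequences, and their mRNAs were recovered in different proportions. Atp5g1 had 6199 (YB-1), 1716 (HuR) and 8160 (IgG) normalized counts. Atp5g2 had 5757, 4267 and 5737, and Atp5g3 had 6030, 4656 and 13676. Of the reads of the 3 genes, Atp5g1 held 34.5% (YB-1), 16.1% (HuR) and 29.6% (IgG). Atp5g2 held 32.0%, 40.1% and 20.8%, and Atp5g3 held 33.5%, 43.8% and 49.6%. HuR was thus low in Atp5g1, where YB-1 was 3.61-fold above it, and IgG was high in Atp5g3. These are shares of reads, not per transcript length. The genes lie apart on GRCm38, Atp5g1 at chr11:96068852-96075670, Atp5g2 at chr15:102662864-102672352 and Atp5g3 at chr2:73908447-73911326. The interval of Atp5g2 in YB-1 over IgG covers 0, the one such gene in that comparison.

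**Figure D5:**
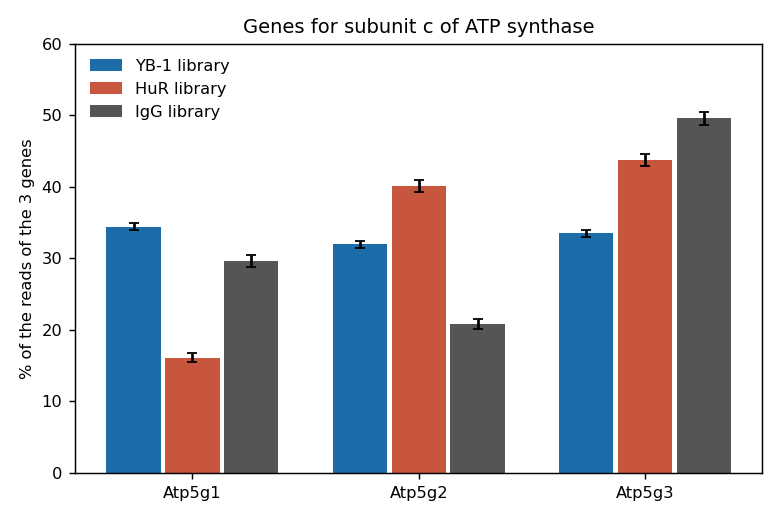
Share of the reads of Atp5g1, Atp5g2 and Atp5g3 held by each gene, in percent, by library, with exact 95% intervals. The Atp5g1 share is lowest in HuR at 16.1%, and the Atp5g3 share is highest in IgG at 49.6%.

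The peripheral stalk and membrane subunits lay closer together in YB-1 and HuR by their medians than the F1 genes, whose median of HuR over YB-1 was -0.92. The 4 stalk genes had medians of -0.93 for YB-1 over IgG, -1.31 for HuR over IgG and -0.39 for HuR over YB-1. Atp5o, which ties the stalk to the F1 head, had 13558, 6648 and 12763 and was the one stalk gene to fall short of YB-1 in HuR by 2-fold or more. Its exons overlap Donson on the same strand. Atp5j, coupling factor 6, had 2290, 2375 and 7616, with YB-1 and HuR level. Atp5f1, the b subunit, had 5299, 4028 and 13681, and Atp5h, the d subunit, had 5617, 4305 and 7852. In the membrane part, Atp5j2, Atp5k and Atp5l, the last pair known from yeast to be needed for ATP synthase dimers, had medians of -1.15, -1.46 and -0.32. Their normalized counts were 3691, 2354 and 4856 for Atp5j2, 1987, 1596 and 4667 for Atp5k, and 4001, 3245 and 8899 for Atp5l. Of the 50-base stretches of Atp5l, 68.5% occur in another gene, as do 47.9% for Atp5h, 43.2% for Uqcrb and 23.2% for Atp5f1. Outside the complexes, Atp5s had 54.2, 42.2 and 186, and Atp5sl had 291, 154 and 840.

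The 3′ UTRs of the group are short, with a median of 180.5 bases in 40 genes against 1131 over all genes. Each is that of the gene's longest annotated coding transcript, from GENCODE M21 on GRCm38. The pentamer ATTTA, the core of AU-rich elements, occurred in 15 of these 40 UTRs (37.5%), against 68.9% of all genes. Among UTRs of 131.5 to 313.5 bases the shares were 30.0% (6 of 20) and 29.5%. TTTTT occurred in 27.5% against 76.4%, and within that length range in 2 of 20 against 37.1%. Sites of 5 genes described above are shown, because the genes differ in HuR over YB-1, with flanking bases, 5′ to 3′ on the coding strand, with ATTTA in capitals.
Atp5b, site 1: tctctgaagagtATTTAaagttttcaata
Atp5b, site 2: tatatacccctcATTTAtgtctgtttatg
Atp5b, site 3: gtggtgggccacATTTAggaaattgttag
Atp5b, site 4: ttaaaaagatcaATTTAttaatgaga
Cox6a2: tattttttaaaaATTTAtacaagcaatac
Cox7a2: ttggggatcaatATTTAttgatgtgtatt
Cox7c: ggatATTTAattcatcccttt
Cox8a: acaataaagtctATTTAaaccttgctcca
Atp5b carries 4 sites in 272 bases and had a log2 ratio of HuR over YB-1 of -0.54. Cox7a2, with a site in 186 bases, was among the lowest in HuR, and Cox7c, with a site in 114 bases, was level in both. Other genes hold the pentamer too, such as Cox7b with 3 sites in 627 bases and a ratio of -0.24. Atp5g1 has 3 sites and a ratio of -1.85, but its 3′ UTR of 4252 bases is that of its longest transcript. Whether its shorter transcripts hold these sites was not tested, nor was the number of sites against the ratio. Across 38 genes the Spearman correlation of 3′ UTR length with HuR over YB-1 was -0.17, against 0.32 over all genes. The correlation of GC content with YB-1 over IgG was 0.35 over 39 genes and 0.52 over 36 without the muscle isoforms, against 0.26 over all genes. With HuR over IgG it was 0.29 and 0.43, against 0.03 over all genes. With HuR over YB-1 it was -0.22 and -0.25, against -0.37 over all genes. These correlations share the libraries and describe the genes only.

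The rest of respiration was read from lists for comparison. Complex I, which feeds electrons in from NADH, had medians of -0.74 for YB-1 over IgG and -1.26 for HuR over IgG. Of its 37 genes, 12 and 28 were at least 2-fold lower, where 32.8% and 31.1% of all genes were, so the YB-1 count is near that share. In both, 0 of its genes were at least 2-fold higher, where 17% and 18.9% of all genes were. Its median for HuR over YB-1 was -0.63. All 4 complex II genes were at least 2-fold below IgG in both, where 32.8% and 31.1% of all genes were. Among them Sdha, the flavin subunit, stood at 3936, 3561 and 20540. Cycs, cytochrome c itself, had 5403, 3160 and 12384. Mitochondrial ribosomal proteins, 76 genes, had medians of -0.07, -0.40 and -0.52. Cytosolic ribosomal proteins lay above IgG, with medians of 1.16 and 0.49, and had a median of -0.73 for HuR over YB-1. Of their 78 genes with that last ratio, 27 were at least 2-fold lower in HuR, where 10.6% of all genes were. A lower level in HuR than in YB-1 was thus not particular to the respiratory genes. No difference between these lists and the 42 genes was tested.

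Assembly factors and regulators were read in the same way. The 20 complex IV assembly genes had medians of -0.51 and -0.25 against IgG, and for HuR over YB-1, 6 were higher by 2-fold or more and 2 lower by as much, where 19.3% and 10.6% of all genes were. Among them Coa5 had 1305 (YB-1), 4733 (HuR) and 3265 (IgG) normalized counts, with a log2 ratio of HuR over YB-1 of 1.86. Atpif1, the ATP synthase inhibitor, had 3888, 2635 and 922, above IgG in both immunoprecipitates at 2.08 and 1.51. Atpaf1, which chaperones the F1 beta subunit, had 240, 149 and 1290, and Atpaf2, which chaperones the alpha subunit, had 711, 1588 and 691. The 4 complex III assembly genes had medians of -0.86 and -0.71, and Lyrm7 among them had 0 reads in both immunoprecipitates against 202 normalized counts in IgG.

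The authors' deposited table gives DESeq2 values for YB-1 over IgG from 1 library each, so its p-values hold no spread between replicates. In it, 0 of 15403 genes had an adjusted p below 0.05, and the smallest was 0.845. An unadjusted p below 0.05 was deposited for 213 genes, of which 209, or 1.36% of all genes, were lower in YB-1. Cox7a1 was the 1 of the 42 with such a p, at 0.0304, with a moderated log2 fold change of -2.34 and a standard error of 1.08 in the authors' deposited table. Among the 42, the highest moderated value in the authors' deposited table was 1.16 for Cox8a, with a standard error of 0.873. Of the 42 genes, 34 in the authors' deposited table had a fold change below 0, among them Cox4i2 and Cox6b2 with 0 reads in YB-1. At a mean normalized count of 10 or more, the median moderated value was -0.80 for the group and -0.13 for all genes. Since the median of all genes was itself below 0, a fold change below 0 was common outside the group too. The share of all genes below 0 was not taken, so the count of 34 of 42 has no share beside it.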

How the data were processed

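Normalized counts per gene (a signal: reads over the library's size factor) were taken as deposited by the authors for the YB-1, HuR and IgG libraries. The authors' deposited table also gives a moderated log2 fold change, its standard error, a Wald score, a p-value and an adjusted p-value for YB-1 over IgG. The submitters' processing notes name the aligner TopHat2 2.0.10, the counter HTSeq 0.6.1, DESeq2, and the builds mm10 and GRCm38. Parameters and strand were not given in the sources used here. Values were whole multiples of 1 read for 100% within 0.01 read, so reads were recovered. No count model was fitted, because 1 library per antibody leaves no spread between replicates.

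Of 15428 named rows, 25 held a date where the symbol should be and were left out, as was 1 row without a name. The date rows held 0.190% of YB-1, 0.304% of HuR and 0.123% of IgG reads. Ratios were unmoderated, with a library at 0 set to 3 reads, and no ratio where both had 3 or fewer. Ratios to IgG used genes with a mean normalized count of 10 or more over the 3 libraries, and HuR over YB-1 used a mean of 10 or more over those 2 libraries. A gene counted as higher or lower from 2-fold. Intervals and ratios were checked on simulated data. GENCODE M21 matched 41 of 42 symbols, and RefSeq promoters 30. The members and lists were chosen with earlier results of these data known. Full values were due for the 2 members of highest mean in each complex, the 3 highest and 3 lowest of each ratio at a mean of 50 or more, and the isoform families, and other members were named after their values were seen. Alternatives were other scalings, no filter or a mean of 50, 0.5 read added, subunits alone, the authors' moderated fold, shares per length and, chosen after seeing the data, leaving out the muscle isoforms. Python 3.11.15, numpy 2.4.6, pandas 2.3.3, scipy 1.17.1 and matplotlib 3.10.9 were used.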

Additional observations from a re-analysis of the deposited data

How the results depend on the processing

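The median log2 ratio of YB-1 over IgG, -0.998, became -0.77 when scaled to total reads, -2.15 when recentred on ribosomal protein genes, -0.80 with the authors' moderated fold and -0.78 without the 3 muscle isoforms, a setting chosen after seeing the data. That of HuR over IgG, -1.58, became -1.39 and -2.07 under the first 2 of these settings. That of HuR over YB-1, -0.67, turned to 0.067 when recentred. That turn is arithmetic, because recentring subtracts the median of the ribosomal protein genes, which was -0.73 for HuR over YB-1. The same median was 1.16 for YB-1 over IgG and 0.49 for HuR over IgG. Why the ribosomal protein genes differed between libraries was not tested. The position relative to the median of all genes is the same under both scalings by construction. Recentring also changed the number of genes at least 2-fold higher and lower to 0 and 34 for YB-1 over IgG, from 1 and 20 (15 lower with total reads, 14 with the moderated fold), and to 1 and 2 for HuR over YB-1, from 0 and 7. Per length of the longest transcript, the muscle isoform shares in YB-1, HuR and IgG were 36.5%, 38.9% and 89.4% for Cox6a2, and 8.31%, 9.46% and 76.0% for Cox8b, and for Cox7a1 1.55% in YB-1 and 63.2% in IgG. The medians and counts moved little with no filter, a mean of 50 or more, 0.5 read added, or subunits alone. No paired analysis was possible because there was 1 library per antibody, and for the same reason no replicate could be left out. Depth limits the IgG library most, where 1 read is worth 2.29 normalized counts.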
